A study of Mus musculus with 4 samples.

Results

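The Kruppel-like factors (KLFs) described here are 8 genes of B cells: Klf2, Klf3, Klf4, Klf6, Klf7, Klf9, Klf10 and Klf13. They were chosen by name, as every non-control probe whose gene name on the array is one of these symbols. This gave 8 of the 27745 gene names on the array and 14 of its 41174 different non-control probes, with 2 probes each for 6 genes and 1 probe each for Klf4 and Klf10. All 14 passed the detection filter used for testing, and 11 of them were well above background on all 4 arrays.

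RNA was measured on 4 single-colour mouse oligonucleotide arrays. The control group held 2 samples of B220+ splenocytes from C57BL/6N mice, B220 being the B-lineage form of CD45. The other group held 2 B-cell lymphoma lines established independently from dopamine receptor 3 transgenic mice, each on 1 array. The labels give the strain C57BL/6N and female sex for all 4 samples, and no age. The promoter that drives the transgene is not given in the sources used here, and neither is whether a splenocyte sample came from 1 mouse or a pool. Tumour against normal state, culture against fresh selection, and transgene are all confounded with the groups and cannot be told apart. In such bulk RNA, fewer cells of a type and less RNA per cell cannot be told apart either.

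KLFs are transcription factors that bind GC-rich and CACCC-type DNA through zinc fingers at their carboxyl end. By their partners they fall into repressors that recruit CtBP (here Klf3), factors that mostly recruit acetyltransferases and activate (Klf2, Klf4, Klf6, Klf7), and factors that bind the Sin3A corepressor (Klf9, Klf10, Klf13). In lymphocytes KLF2 is known for keeping cells resting and for controlling homing, and KLF4 for restraining division of B cells.

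Most of these factors had lower RNA signals in the lymphoma lines. On a log2 scale relative to the 75th percentile of each array, 10 of 14 probes were called lower in the lines and 2 higher, at a Benjamini-Hochberg adjusted p under 0.05 by limma. Of these 10, 3 (that of Klf4 and both of Klf3) passed the detection filter through the splenocytes alone, so their calls are no support of their own. Of all 27404 tested probes 64.8% were called, 32.5% as lower and 32.3% as higher, so calls as such were common on these arrays. Klf3, Klf4, Klf6 and Klf7 were lower at every probe, Klf10 was higher at its single probe, and Klf9 and Klf13 were lower at 1 of 2 probes. Klf2 had 1 probe called in each direction. The median difference of the 14 probes was −2.41, against −0.01 over all tested probes. Members and lists were chosen with earlier results of these data known. Their gap to all probes, here and below, is a description and no test. In 13 of 14 probes the groups did not overlap, 10 of them lower and 3 higher in the lines, where 85.6% of all tested probes did not overlap and 42.9% were lower without overlap. The p-values and SEs rest on the spread of 2 samples a group, which limma combined with the spread over all tested probes. Either spread may be technical.

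Klf2, Klf3 and Klf4 fell at 1 probe or more, as did Klf6, Klf7, Klf9 and Klf13. For the first 3, the 250 bases before the gene start are shown, with sites that KLF and Sp proteins are known to bind. They are printed 5′ to 3′ as transcribed, from RefSeq on GRCm38.p6, with capitals for GC boxes (GGGCGG on either strand, overlaps allowed) and for a match to the MEF2 consensus in Klf2.
Klf2 (chr8:72318812-72319061, plus strand): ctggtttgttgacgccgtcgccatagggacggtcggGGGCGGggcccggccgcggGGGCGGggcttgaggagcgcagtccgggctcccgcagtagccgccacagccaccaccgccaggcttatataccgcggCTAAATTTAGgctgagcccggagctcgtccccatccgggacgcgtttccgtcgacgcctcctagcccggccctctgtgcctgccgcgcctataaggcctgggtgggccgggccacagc
Klf3 (chr5:64803271-64803520, plus strand): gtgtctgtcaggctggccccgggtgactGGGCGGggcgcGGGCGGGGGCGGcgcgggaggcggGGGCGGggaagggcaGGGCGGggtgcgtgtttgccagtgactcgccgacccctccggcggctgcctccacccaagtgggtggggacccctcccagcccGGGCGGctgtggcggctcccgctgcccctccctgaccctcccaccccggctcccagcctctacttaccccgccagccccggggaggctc
Klf4 (chr4:55532476-55532725, minus strand): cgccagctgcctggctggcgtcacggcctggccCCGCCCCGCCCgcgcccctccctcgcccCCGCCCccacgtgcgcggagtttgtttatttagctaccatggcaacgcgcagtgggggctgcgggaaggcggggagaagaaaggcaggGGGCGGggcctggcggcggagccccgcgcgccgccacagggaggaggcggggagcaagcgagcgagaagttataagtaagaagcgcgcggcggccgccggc

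Of the 8 members 7 matched an entry in the RefSeq promoter table, with Klf10 the missing one. In these windows Klf3 held 6 GC boxes, Klf4 4, Klf13 3, Klf2 2, Klf6 and Klf7 1 each, and Klf9 none, where 32.7% of 32851 promoters of the same length held at least 1. Klf2 was the member with a match to the MEF2 consensus, CTAAATTTAG, 118 bases before the gene start, a match that 2.92% of promoters had. The CACCC motif (CACCC on either strand) was found in Klf2, Klf3, Klf7, Klf9 and Klf13, against 52.0% of promoters. A FOXO motif (GTAAACA on either strand) was found in Klf9 alone, against 3.17% of promoters. A CRE (TGACGTCA) and a CArG box, which were also searched on both strands and are held by 1.55% and 1.47% of promoters, were found in none of the 7 windows. The GC content was 71.2% in Klf2, 78.4% in Klf3, 74% in Klf4 and 71.6% in Klf13. It was 64.8% in Klf6, 59.2% in Klf7 and 59.6% in Klf9. All 7 lay above the median of 52.4% over all promoters. No binding was measured, and the matches describe the letters of these windows only.

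**Figure D1:**
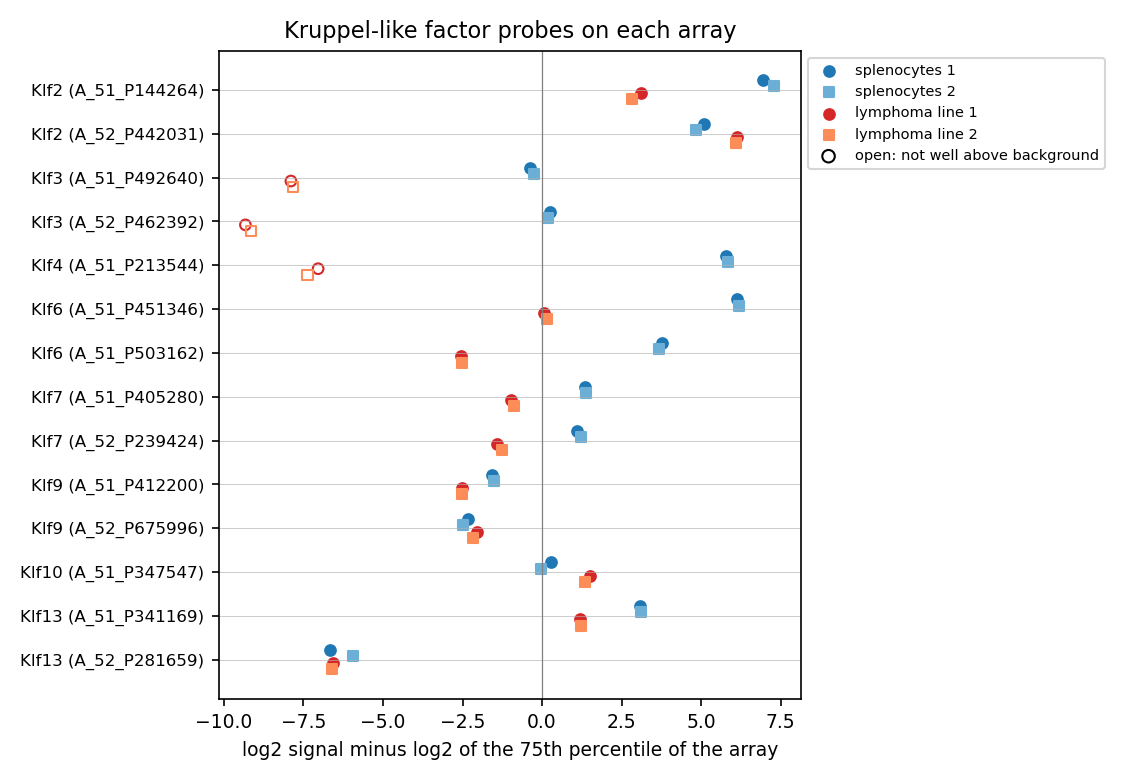
Log2 signal relative to the 75th percentile of the array (x axis) for each of the 14 probes (rows) on each of the 4 arrays, with open symbols where the probe was not well above background. Klf4 has values of 5.79 and 5.86 in splenocyte samples 1 and 2 and was not well above background in either line, and the upper and lower Klf2 rows run in opposite directions.

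Among the activating factors, Klf4 had the largest difference. Its probe (A_51_P213544, RefSeq NM_010637; mm8, chromosome 4, 55549061 to 55549120) lay at 5.79 in splenocyte sample 1 and 5.86 in splenocyte sample 2. In line 1 it lay at −7.04 and in line 2 at −7.37, neither well above background. Both splenocyte samples were thus bright and near each other, and both lines were dark. The probe passed the detection filter through the splenocytes alone, so no p-value is given for it. Set against the lowest signal well above background on each line array, or its own signal if higher, Klf4 was at least 7178-fold lower in the lines. That bound holds for the deposited processed signal alone: with normexp background correction the log2 difference was −9.99, a smaller decrease than the bound. Klf4 and the Klf3 probes were well above background in both splenocyte samples and neither line, a pattern held by 3 of 14 member probes and by 5.15% of all tested probes.

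Klf6, a growth-regulated activator and candidate tumour suppressor, fell at both probes by similar amounts. The brighter one (A_51_P451346; mm8, chromosome 13, 5869371 to 5869430) had levels of 6.13 and 6.20 in splenocyte samples 1 and 2, against 0.05 and 0.16 in lines 1 and 2, a 66.6-fold decrease (log2 difference −6.06 ± 0.15, SE, n = 2 against 2; limma adjusted p = 0.000118). The other (A_51_P503162, chromosome 13, 5866706 to 5866765), 2665 bases upstream by its start, lay at 3.77 and 3.68 in the splenocytes and −2.54 and −2.50 in the lines, 76.1-fold lower (−6.25 ± 0.14, SE; adjusted p = 0.000107). Both Klf6 probes stayed well above background in the lines, so these folds rest on measured signals in both groups. Within an array, the log2 ratio of the brighter to the dimmer Klf6 probe was 2.36 and 2.51 in the splenocytes and 2.59 and 2.67 in the lines, a change that did not pass the threshold (0.19 ± 0.11, SE; adjusted p = 0.216).

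Klf7, an activator known from neurons and from fat cell differentiation, fell about as much at both of its probes. The probe A_51_P405280 (mm8, chromosome 1, 64013046 to 64013105) lay at 1.36 and 1.39 in the splenocytes and −0.98 and −0.89 in the lines, 4.96-fold lower (−2.31 ± 0.14, SE, n = 2 against 2; limma adjusted p = 0.000576). The probe A_52_P239424 (chromosome 1, 63967840 to 63967899), designed on a cDNA clone and 45206 bases away, lay at 1.11 and 1.23 against −1.42 and −1.25, 5.67-fold lower (−2.50 ± 0.16, SE; adjusted p = 0.000585). The groups were apart at both probes, and their within-array ratio changed by 0.20 ± 0.10 (SE; adjusted p = 0.182).

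Klf2 gave opposite results at its 2 probes, which carry the same RefSeq transcript (NM_008452). The downstream probe (A_51_P144264; mm8, chromosome 8, 75250227 to 75250286, plus strand) had processed signals of 132173 and 81327 in the splenocyte samples and of 9709 and 9379 in lines 1 and 2. Its scaled log2 levels were 6.94 and 7.31 in the splenocytes and 3.11 and 2.83 in the lines. This probe was 17.7-fold lower in the lines (−4.15 ± 0.21, SE, n = 2 against 2; limma adjusted p = 0.000372). The probe that starts 1376 bases upstream (A_52_P442031; chromosome 8, 75248851 to 75248910) had processed signals of 36970 and 14891 in the splenocytes and of 78480 and 90164 in the lines. Its levels were 5.10 and 4.86 in the splenocytes and 6.13 and 6.10 in the lines, 2.20-fold higher (1.14 ± 0.16, SE; adjusted p = 0.00440). All 4 arrays were well above background at both probes, and the groups did not overlap at either.

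The ratio of both Klf2 probes within an array needs no scaling between arrays. The log2 ratio of the downstream to the upstream probe was 1.84 and 2.45 in the splenocytes and −3.02 and −3.26 in lines 1 and 2. It was lower in both lines than in either splenocyte sample. The size of the change was 5.28 ± 0.26 (SE, n = 2 against 2), with a limma adjusted p of 0.00322 over 6230 gene names with several tested probes, a test chosen after the opposite directions were seen. Of these names 49.5% passed that test, and in 541 of them (8.68%) called probes went opposite ways. A larger gap between the differences of its probes than that of Klf2 was found for 86 names (1.38%). Which direction Klf2 takes therefore depends on the probe: where each gene is represented by its probe with the highest mean, Klf2 counts as higher in the lines and the members split into 6 lower and 2 higher. Single probes do not show transcript structure, which was not measured here.

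**Figure D2:**
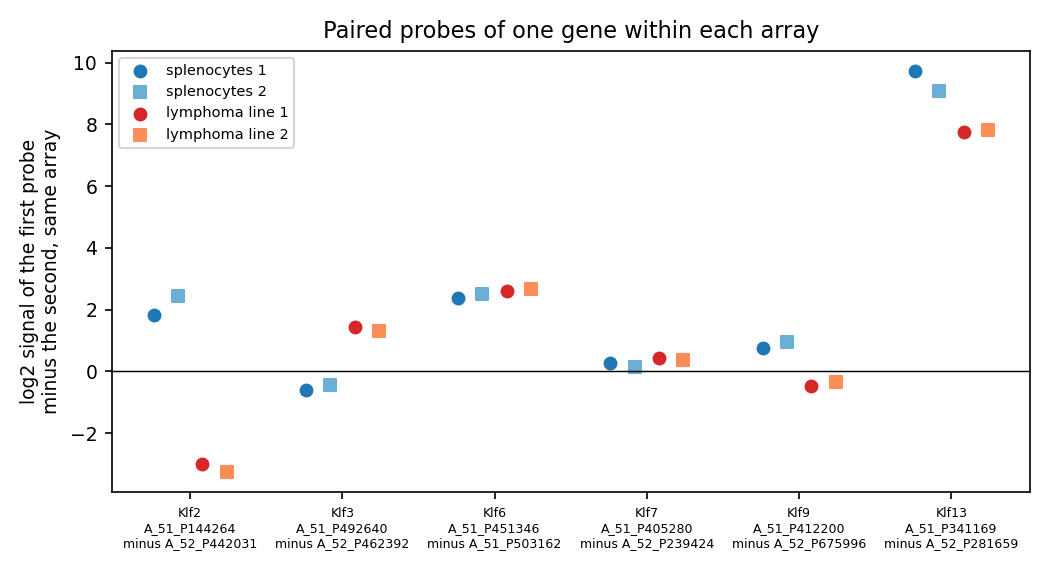
Log2 signal of the first probe minus that of the second, within each of the 4 arrays (y axis), for the 6 members with 2 probes (x axis). The Klf2 ratio is 1.84 and 2.45 in the splenocytes and −3.02 and −3.26 in the lines, while the Klf6 ratio stays between 2.36 and 2.67 on all arrays; the Klf3 ratio in the lines and the Klf13 ratio rest on dim signals.

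The repressor Klf3, which works through CtBP, was bright in the splenocytes alone. Its probe A_52_P462392 (mm8, chromosome 5, 65108439 to 65108498) lay at 0.24 and 0.20 in the splenocytes and at −9.33 and −9.15 in the lines. Its other probe, A_51_P492640 (chromosome 5, 65101464 to 65102044, an aligned span of 581 bases), lay at −0.38 and −0.25 against −7.90 and −7.83. In both lines both probes were not well above background, and both splenocyte samples were. Both probes passed the detection filter through the splenocytes alone, so no p-value is given for them. On the processed signal, Klf3 was at least 164-fold lower at the first probe and at least 113-fold lower at the second. With normexp the log2 differences were −4.72 and −3.83, smaller decreases than these bounds.

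Among the Sin3A-binding factors, Klf13 fell at its bright probe. Known as an activator of Ccl5 in T cells, it lay at 3.07 and 3.13 in the splenocytes and 1.19 and 1.22 in the lines at A_51_P341169 (mm8, chromosome 7, 63770693 to 63816921), 3.72-fold lower (−1.89 ± 0.14, SE, n = 2 against 2; limma adjusted p = 0.000855). That probe aligns over 46229 bases, and so across an intron. The second probe (A_52_P281659, designed on a cDNA clone) was near the detection limit, with processed signals of 10.6 and 8.34 in the splenocytes and 11.8 and 13.6 in the lines. Its scaled levels of −6.66, −5.95, −6.57 and −6.59 overlapped between the groups, and its difference of −0.28 ± 0.28 (SE) did not pass the threshold (adjusted p = 0.419), with an opposite sign of 0.079 without splenocyte replicate 2.

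Klf9, a factor known to respond to glucocorticoids and thyroid hormone, moved little. At A_51_P412200 (mm8, chromosome 19, 23232745 to 23232804) it lay at −1.56 and −1.51 in the splenocytes and at −2.52 in both lines, 1.98-fold lower (−0.99 ± 0.14, SE, n = 2 against 2; limma adjusted p = 0.00439). At A_52_P675996 (chromosome 19, 23231944 to 23232003), 801 bases upstream, it lay at −2.31 and −2.47 in the splenocytes and −2.05 and −2.17 in the lines. This difference of 0.28 ± 0.15 (SE) did not pass the threshold (adjusted p = 0.174), although the groups did not overlap, and quantile normalization (0.49; adjusted p = 0.0470) or centring on the median (0.69; adjusted p = 0.0264) brought it past. The within-array log2 ratio of the downstream to the upstream probe was 0.75 and 0.96 in the splenocytes and −0.47 and −0.35 in the lines (change of −1.27 ± 0.13, SE; adjusted p = 0.00669). Of all gene names with several tested probes, 49.5% passed that ratio test. In Klf9 as in Klf2, the downstream probe was the one that fell, while Klf3, Klf6 and Klf7 fell at both probes.

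Klf10, known as a gene induced early by TGF-beta, was the member that rose at its only probe (A_51_P347547; mm8, chromosome 15, 38239377 to 38239436). It lay at 0.30 and −0.02 in the splenocytes and at 1.50 and 1.36 in the lines, with no overlap. The increase was 2.45-fold (1.29 ± 0.18, SE, n = 2 against 2; limma adjusted p = 0.00428).

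**Figure D3:**
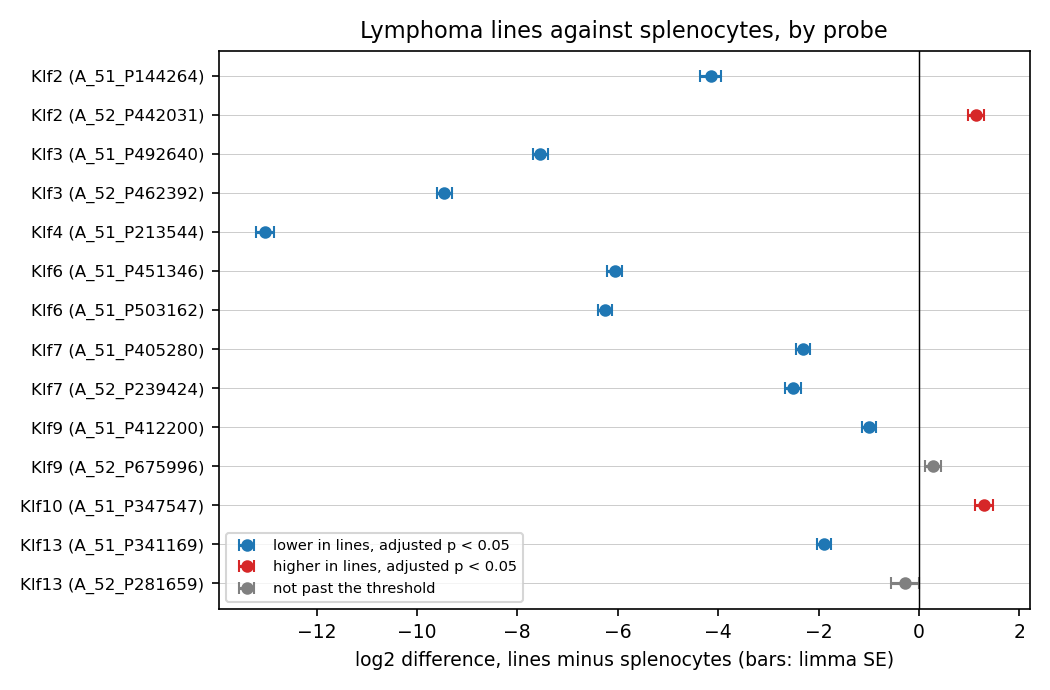
Difference between the group means on the log2 scale (x axis, lines minus splenocytes) for each of the 14 probes (rows), with the limma SE as bars. Differences run from −13.03 for Klf4 to 1.29 for Klf10; those of Klf3 and Klf4 rest on line signals not well above background.

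**Figure D4:**
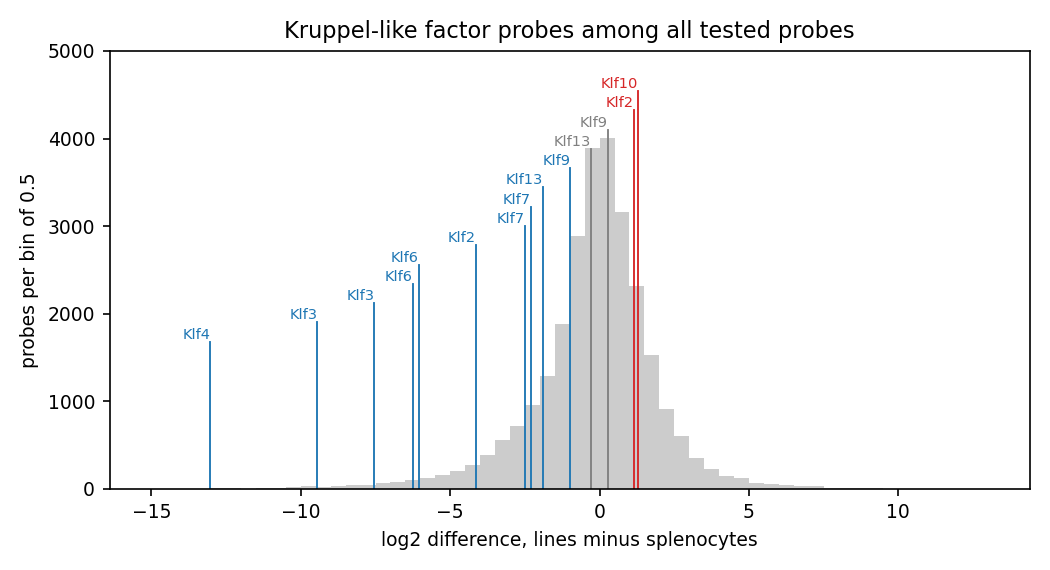
Number of tested probes (y axis) by log2 difference, lines minus splenocytes (x axis, bins of 0.5), with each member probe as a vertical line whose height has no meaning. The 6 leftmost member lines (Klf4, both of Klf3, both of Klf6 and the downstream Klf2 probe) lie in the left tail, and the lines of Klf10 and the upstream Klf2 probe lie on the right shoulder.

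The decreases of Klf2 (downstream probe), Klf3, Klf4 and Klf6 were all larger than 10-fold. These are 6 of 14 probes, where 6.52% of all tested probes were called lower by at least 10-fold. The 2 lines differed little at these probes, but 3 of the 14 (both of Klf3 and that of Klf4) were not well above background in either line. The absolute log2 difference between line 1 and line 2 had a median of 0.10 over the 14 probes and a maximum of 0.33 (Klf4, not well above background in either line), against a median of 0.23 over all tested probes. Of all tested probes 6.33% differed by more than 1 between the lines, and none of the 14 did. So few probes cannot be set apart from that share. Between the splenocyte samples the median was 0.10 over the 14 probes and 0.16 over all. Each line is on 1 array, so no difference between the lines was tested.

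Of the other genes, those whose values over the 4 arrays lay closest to the brighter Klf6 probe were Crip1, Klhl36 and Brwd1, with Euclidean distances of 0.20, 0.22 and 0.24 on the log2 scale after centring each gene on its mean. The closest to Klf10 were Chml, Psmg1 and Nif3l1, at 0.05, 0.06 and 0.07. The candidates were 15163 genes well above background on all arrays, and the nearest probes without a current gene symbol are left unnamed. With 4 arrays, such likeness describes mostly the size of the difference between the groups.

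The wider KLF and Sp family went both ways. Of 14 tested relatives of 18 listed, 3 were called higher, 4 lower and 7 did not pass, with a median log2 difference of 0.07. Over all 18243 genes, each by its brightest tested probe, 30.8% were called higher and 32.7% lower, with a median of −0.04. Klf5, known as a driver of proliferation in epithelia, rose 18.4-fold (4.21 ± 0.18, SE, n = 2 against 2; limma adjusted p = 0.000279), from dim splenocyte signals, and by 2.47 on the log2 scale with normexp. Sp6 rose 4.37-fold (2.13 ± 0.18, SE; adjusted p = 0.00108), and by 1.53 with normexp. Sp4 fell 7.87-fold (−2.98 ± 0.14, SE; adjusted p = 0.000331) and Klf17 2.22-fold (−1.15 ± 0.21, SE; adjusted p = 0.00879). Klf17 was dim on all arrays, and its difference was −0.83 with normexp and −0.73 with quantile normalization.

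Cofactors and ubiquitin ligases of KLFs went both ways. Of 17 tested genes, each by its brightest probe, 7 were higher, 3 lower and 7 did not pass (median 0.43). Over all genes 30.8% were called higher and 32.7% lower. Named after their values were seen, 4 genes differed by probe. Ep300, counted as lower, reached −4.09 at another probe. Wwp1, Smurf1 and Sin3b counted as not passing. Yet 3 of 4 Wwp1 probes and 1 of 2 Smurf1 probes were called higher, and 1 of 2 Sin3b probes lower (−1.46). Hdac2, a histone deacetylase of the Sin3 complex, rose 4.48-fold (2.16 ± 0.18, SE; limma adjusted p = 0.00109; 1.49 with normexp), and Sap30, a subunit of the same complex, 2.96-fold (1.57 ± 0.15, SE; adjusted p = 0.00155). Kat2b, an acetyltransferase, fell 2.25-fold (−1.17 ± 0.21, SE; adjusted p = 0.00803), and its other probe was at −2.28. Itch, a ubiquitin ligase, fell 1.73-fold (−0.79 ± 0.17, SE; adjusted p = 0.0164), and passed no longer when splenocyte replicate 1 (adjusted p = 0.0832) or 2 (adjusted p = 0.0736) was left out or when arrays were centred on the median (adjusted p = 0.109). Ctbp1, the partner of KLF3, was named after its value was seen and rose 1.68-fold (0.75 ± 0.14, SE; adjusted p = 0.0101), which did not hold with splenocyte replicate 1 (adjusted p = 0.0647) or 2 (adjusted p = 0.0669) left out. Without splenocyte replicate 1, or without splenocyte replicate 2, the cofactor counts fell to 3 higher and 1 lower. Itch had 4 tested probes, of which 3 were called lower, with differences down to −3.69.

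Genes that act above KLF2 and KLF4 were mostly lower. The kinase ERK5 (Mapk7) with MEF2 factors is known to induce Klf2, and FOXO factors are known to induce Klf2 and Klf4. Of 11 tested genes of this group 7 were lower, 3 higher and 1 did not pass (median −0.92). Over all genes 32.7% were called lower and 30.8% higher. When arrays were centred on the median, 5 were lower and 4 higher. Mef2d, named after its value was seen and counted as lower, had 3 tested probes, with 1 called higher and 1 lower. Foxo3 fell 4.31-fold (−2.11 ± 0.52, SE, n = 2 against 2; limma adjusted p = 0.0226), a call lost without line 1 (adjusted p = 0.0860) or line 2 (adjusted p = 0.0832). Its splenocyte values of −3.82 and −2.34 were far apart, and the difference was −2.85 without splenocyte replicate 1, −1.37 without splenocyte replicate 2 and −1.36 with normexp. Mef2c fell 3.81-fold (−1.93 ± 0.16, SE; adjusted p = 0.00115), and its other probe was at −4.06. Mef2b rose 12.4-fold (3.64 ± 0.26, SE; adjusted p = 0.000802) and Map2k5, the kinase above ERK5, 2.15-fold (1.11 ± 0.15, SE; adjusted p = 0.00351). Foxo1, named after its value was seen, fell 2.13-fold (−1.09 ± 0.15, SE; adjusted p = 0.00414).

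Known KLF targets in lymphocytes were lower in the majority. Of 15 tested genes 11 were lower, 3 higher and 1 did not pass (median −2.16), where 32.7% of all genes were called lower and 30.8% higher. Fcer2a, the IgE receptor CD23, was not well above background in either line and passed the detection filter through the splenocytes alone. It was at least 2370-fold lower on the processed signal, but its log2 difference with normexp was −8.27, a smaller decrease than that bound. Cr2, the complement receptor CD21, fell 735-fold at its brightest probe (−9.52 ± 0.19, SE; adjusted p = 9.44e-05). With normexp that Cr2 probe was at −8.23, and the second Cr2 probe, also called lower, was at −5.14. Bcl2l1, which encodes the survival protein BCL-XL, rose 7.28-fold (2.86 ± 0.23, SE; adjusted p = 0.000980), with differences of 1.55 to 4.12 over its 3 probes. Cdkn1a, the inhibitor p21, rose 3.37-fold (1.75 ± 0.36, SE; adjusted p = 0.0131), which did not hold with splenocyte replicate 2 left out (adjusted p = 0.0554) or with normexp background correction (0.73; adjusted p = 0.0738). Of the trafficking genes that KLF2 is known to control, 2 were named after their values were seen. S1pr1, the sphingosine-phosphate receptor for egress, fell 10.4-fold (−3.38 ± 0.23, SE; adjusted p = 0.000689), and Itgb7, an integrin chain, 9.68-fold (−3.27 ± 0.20, SE; adjusted p = 0.000533).

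Most quiescence and immediate-early genes were lower in the lines, where 32.7% of all genes were called lower and 30.8% higher. Of 11 tested genes linked to the resting state 9 were lower, 1 higher and 1 did not pass (median −1.41). Tsc22d3, the glucocorticoid-induced GILZ, fell 40.2-fold (−5.33 ± 0.16, SE; limma adjusted p = 0.000152) and Btg1, an antiproliferative factor, 4.03-fold (−2.01 ± 0.21, SE; adjusted p = 0.00185). Tsc1 was the one called higher (0.60 ± 0.16, SE; adjusted p = 0.0301), a call lost without any array except line 1 (adjusted p = 0.0735 to 0.142), and its 4 tested probes disagreed, with 2 called higher and 1 lower. Klf2, Klf4, Klf6 and Klf10 are themselves known as early-response genes in some cell types, where their RNA can rise when cells are handled. Of 19 other immediate-early genes tested, 17 were lower and 2 did not pass, with a difference below 0 in each of the 19 (median −2.57). Fos fell 1499-fold (−10.55 ± 0.20, SE; adjusted p = 9.44e-05) to line signals within 3-fold of the lowest well above background, and its difference was −8.67 with normexp. Dusp1, a phosphatase of MAP kinases, fell 82.1-fold (−6.36 ± 0.17, SE; adjusted p = 0.000127). Klf10 was called in the opposite direction, and the part of cell handling in the KLF differences was not tested. Btg2 is on both of these lists.

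**Figure D5:**
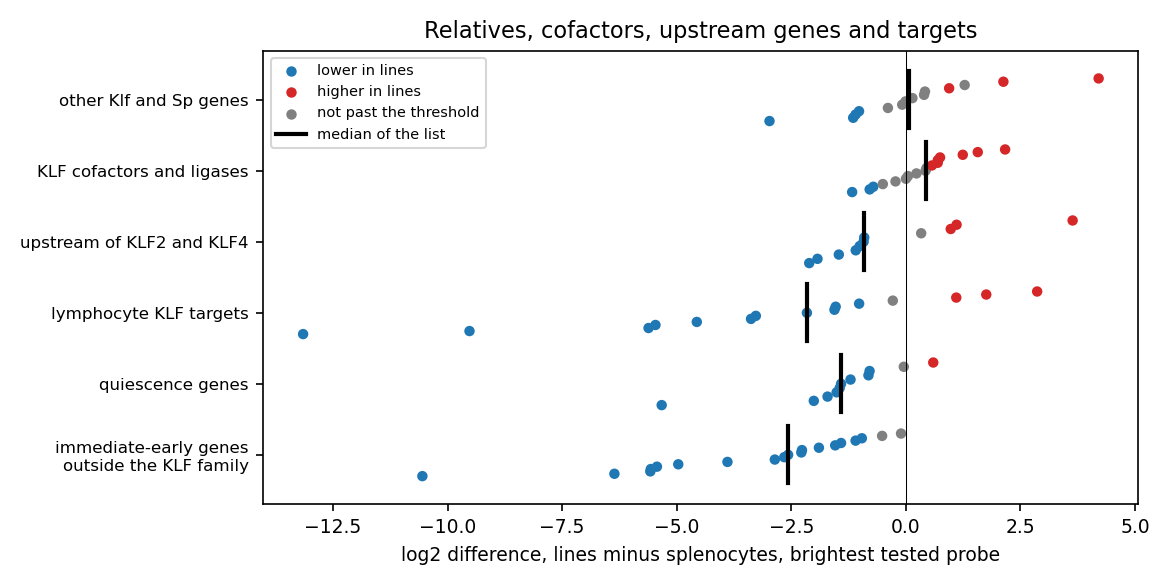
Log2 difference, lines minus splenocytes (x axis), of each tested gene by its brightest probe in 6 lists (rows), coloured by call, with the median of each list as a black bar. The medians lie at 0.07 for the KLF and Sp relatives and 0.43 for the cofactors, and at −0.92, −2.16, −1.41 and −2.57 for the other 4 lists.

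Cells other than B cells can also express these factors, KLF4 in monocytes, KLF2 in T cells and endothelium. The marker counts below stand beside 32.7% of all genes called lower and 30.8% called higher. All 9 B cell markers were well above background on all 4 arrays, with 6 called lower in the lines and 3 that did not pass. Of 9 markers of monocytes, macrophages and neutrophils, 7 were lower in the lines and 1 (Adgre1) higher, and Lyz2 and S100a8 were well above background in both splenocyte samples and neither line. Lyz2 lay at 2.07 and 1.68 in the splenocytes and at −9.29 and −9.10 in the lines. The summed scaled signal of that list, in percent of the 75th percentile of the array, was 1052 to 1608 in the splenocytes and 3555 to 3596 in the lines, where Adgre1 (5.14 and 5.16 in the lines) makes up most of it. Of 9 T cell markers 3 were lower and 3 higher, with Cd8a and Thy1 not well above background in either line, and the sums were 318 to 375 in the splenocytes and 1262 to 1413 in the lines. Cd3g (20.5-fold higher in the lines), Cd5 (5.89-fold) and Cd8b1 (2.89-fold) make up most of the T cell sum there, while Cd3d was 5.34-fold lower. NK cell markers (4 of 6 lower, 1 higher) summed to 141 to 143 against 43.5 to 57.1, and endothelial and stromal markers (2 of 6 lower, 2 higher) to 158 to 159 against 79.8 to 87.3. Dendritic cell markers (1 of 6 lower, 3 higher) summed to 805 to 858 against 852 to 931, erythroid markers (3 of 6 lower) to 574 to 578 against 95.9 to 243, and platelet markers (1 of 4 tested and not called) to 5.02 to 12.9 against 2.49 to 4.67. Klrd1, Gzma, Itgax, Alas2 and Kdr were also well above background in both splenocyte samples and neither line, as Klf3 and Klf4 were. The part of such cells in the KLF differences was not tested.

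The arrays had 24974 to 27319 probes well above background, a 75th percentile of the processed signal of 514 to 1315 (lowest in splenocyte sample 2), and no saturated spot. Pearson's r over the tested probes, which are not independent, was 0.992 for the splenocyte pair, 0.990 for the pair of lines and 0.823 to 0.838 for pairs across the groups. Having 4 arrays limits the precision of every value.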

How the data were processed

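The deposited files hold, per the file headers, Agilent Feature Extraction output (version 9.5.1.1; 9.5 per the submitters' processing notes) for Cy3-labelled cRNA, with mm8 annotation. The processed signal is an intensity that the authors deposited corrected for background and spatial trends within each array, with surrogate values for dim spots. Raw means and backgrounds are deposited as intensity too, and flags of 0 or 1 as other columns. The deposited matrix holds the processed intensity times 1 factor per array, as read from its values.

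Outlier spots (by the deposited flags, on 1 array or more) were dropped, at a cost of 153 probes and no member. The values are log2 of the deposited processed signal, scaled by the 75th percentile within the array. Probes with a well-above-background flag on 2 or more of 4 arrays (27404) were fitted together with limma 3.58.1 (R 4.3.3; prior degrees of freedom 2.42, residual 2), two-sided, and p-values adjusted over all of them by Benjamini-Hochberg. The script was tested on simulated data. Gene lists use the brightest tested probe per gene, with names updated through RefSeq accessions (24297 probes matched). From each list the text names the 2 largest called increases and decreases, and any other name is marked as chosen after its value was seen. Deviations of arrays with the same replicate number correlated at 0.01 across probes, so the numbers were not taken to pair samples. All arrays share 1 slide and scan. Members and lists were chosen with earlier results of these data known. Alternatives were normexp, quantile, median and bright-probe scaling, the deposited matrix, other filters, flagged spots kept, eBayes with trend and robust, 1 probe per gene, each array left out, and a replicate block.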

Additional observations from a re-analysis of the deposited data

How the results depend on the processing

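Of the 14 probes, 13 kept their direction in every alternative that gave them a value, and the 12 called ones kept their call, with 10 lower and 2 higher also with a replicate block, which changed no call among the 14. The dim Klf13 probe reversed to 0.27 with quantile normalization, 0.13 when centred on the median and ranged from −0.64 to 0.079 with 1 array left out (0.079 without splenocyte replicate 2); the Klf6 probe ratio, not called, reversed to −0.14 with normexp, and Ctbp2, not named above, to −0.13. With 1 probe per gene the members gave 6 lower calls, since fewer probes were counted. The change of the Klf13 probe ratio (−1.62; adjusted p = 0.0164) was lost without either line (adjusted p = 0.0596 to 0.0648). Of the lists, the cofactors had 4 higher with normexp and 1 lower when centred on the median, and without 1 array 3 to 7 higher and 1 to 3 lower. The KLF and Sp relatives had 6 higher when centred on the median, and the genes above KLF2 and KLF4 had 5 lower and 4 higher. The single higher quiescence gene, Tsc1, was lost (0 higher) with normexp, with bright-probe scaling, with no filter, with the replicate block (adjusted p = 0.0506) and without some arrays (0 to 1). The cause was not tested where none is given. The median difference over all tested probes was −0.01 and moved to −0.29 with normexp, 0.14 with quantile normalization, −0.14 with bright-probe scaling and 0.40 when centred on the median, where 64.0% of calls were higher against 49.9%. No slide or scan block was possible, since all arrays share 1.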
